A study of Mus musculus with 9 samples.

Results

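The table of this study lists 27 genes of the extracellular matrix and of its remodelling, among 1710 genes in all. They were chosen by symbol: names that begin with Col, Mmp or Adam and a number, or with Adamts, Timp, Lox, Lama, Lamb, Lamc or Fbln, together with a few named matrix genes. Of the 27, 22 carry their usual symbol and 5 are written in capitals in the table (Col5a3, Adamts6, Adamts9, Adamts14 and Adamtsl3), and their Ensembl gene identifiers matched the annotation. They comprise 6 collagens, 4 proteoglycans or matricellular proteins (Dcn, Lum, Thbs1 and Tnc), 2 genes named Lox, 6 matrix metalloproteinases, 1 Adam, 5 Adamts and 2 Adamtsl genes, and 1 inhibitor, Timp1. The label fits 23 of them by the gene ontology text in the table, which names the extracellular matrix for all but Col20a1, Adam8, Loxhd1 and Loxl2. Loxhd1 is included by its name only: it encodes a protein of inner ear hair cells and is no lysyl oxidase. Laminins, fibulins, Fn1, Sparc, Postn, Vcan and Thbs2 were sought by the same rule, but none is among the 1710 listed genes, so they could not be analysed.

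RNA was sequenced from wild-type (WT) mouse brain tissue labelled brain ctx, collected at the injection site 10 days after stereotaxic injection. Adeno-associated virus (AAV), a vector for gene delivery, was given in a low (LowDose) or a high (HighDose) amount, and PBS, a salt solution, is the control group; each group holds 3 libraries. The amounts, the virus's cargo and the animals' age were not used here, and nothing given says whether the libraries came from separate animals, so p-values measure the spread between libraries, which may be technical. Cortical neuron markers cannot check the tissue label, as 0 of 12 such markers are in the table, whereas 13 of 15 striatal markers are, at 1114 to 1648 summed CPM (counts scaled to a common library total) in the PBS libraries.

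The extracellular matrix is the meshwork of collagens, proteoglycans and adhesive glycoproteins between cells. In the brain, fibrillar collagen is scarce outside the meninges and the vessel walls, type IV collagen lies in the basement membrane of vessels, and chondroitin sulphate proteoglycans fill the tissue between neurons. Metalloproteinases of the MMP, ADAM and ADAMTS families cut these proteins, and the TIMPs block many of those enzymes.

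The genes furthest above PBS at the high dose were the metalloproteinases Mmp3, Mmp13 and Mmp25 and the inhibitor Timp1, so the sequences just before their start sites are shown first. Each is the 250 bases before the start in RefSeq (GRCm38.p6), and capitals mark the letters TGANTCA, the AP-1 motif, read on both strands. The windows are chr9:7445572-7445821 (+) for Mmp3, chr9:7272264-7272513 (+) for Mmp13, chr17:23645270-23645519 (-) for Mmp25 and chrX:20869916-20870165 (+) for Timp1.
Mmp3: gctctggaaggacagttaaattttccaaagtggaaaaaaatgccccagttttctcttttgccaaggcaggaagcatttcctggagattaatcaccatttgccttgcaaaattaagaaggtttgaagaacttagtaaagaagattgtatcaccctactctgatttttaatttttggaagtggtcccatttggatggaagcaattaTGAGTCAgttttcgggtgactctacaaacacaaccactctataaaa
Mmp13: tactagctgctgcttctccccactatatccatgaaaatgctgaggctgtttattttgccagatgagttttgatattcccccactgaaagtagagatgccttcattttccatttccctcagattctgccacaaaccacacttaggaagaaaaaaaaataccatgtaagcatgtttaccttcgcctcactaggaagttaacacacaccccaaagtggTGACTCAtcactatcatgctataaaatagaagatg
Mmp25: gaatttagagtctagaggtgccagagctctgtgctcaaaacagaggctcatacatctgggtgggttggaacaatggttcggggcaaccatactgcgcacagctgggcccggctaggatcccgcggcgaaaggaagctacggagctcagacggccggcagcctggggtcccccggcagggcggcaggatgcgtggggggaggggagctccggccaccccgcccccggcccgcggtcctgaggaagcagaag
Timp1: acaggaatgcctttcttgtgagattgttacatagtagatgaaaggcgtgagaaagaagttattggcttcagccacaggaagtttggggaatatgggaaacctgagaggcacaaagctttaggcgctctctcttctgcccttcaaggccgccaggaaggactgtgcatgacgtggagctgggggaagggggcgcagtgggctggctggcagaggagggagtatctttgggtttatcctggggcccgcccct

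RefSeq windows from 250 bases before to 50 bases after the start were found for 18 of the 27 genes (20 windows). TGANTCA was in 2 of those windows, beginning 46 bases before the start of Mmp3 and 35 bases before that of Mmp13, and in 7.81% of all 32851 windows. The interferon response element GAAANNGAAA was in 1 window, that of Mmp13, on the reverse strand 146 bases before the start, and in 3.44% of all windows. The gamma-activated site TTCNNNGAA was in 0 of the 20 and in 8.30% of all. The motifs do not overlap each other in the Mmp3 and Mmp13 windows. These matches describe letters and show no binding. In the annotation (GENCODE M21, mm10) Mmp13 (chr9:7272514-7283331) and Mmp3 (chr9:7445822-7455975) lie on the same strand with 162 kb between them.

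At the high dose 25 of the 27 matrix genes rose against PBS and 2, Adamts16 and Adamtsl2, fell (edgeR quasi-likelihood test, Benjamini-Hochberg adjusted p under 0.05). This is close to the background: of 1583 genes tested, 86.3% were called higher and 10.7% lower. All genes in the table differ at least 2-fold in mean FPKM (fragments per kilobase of transcript, scaled to the library total) between at least 1 pair of groups, 25 of the 27 between HighDose and PBS, so the tests repeat part of that choice. The median log2 change of the 27 was 1.56 against 1.90 over all genes tested, with 11 of them above that median and 16 below it. In CPM, every HighDose library lay above every PBS library in 24 of them (85.8% of all genes). In 2 every HighDose library lay below (10.3%), and Lum overlapped. Col3a1 and Adamtsl3 also overlapped in FPKM. Levels below are CPM, taken over the recovered library total and given for replicates 1, 2 and 3 in that order, and log2 changes are given with their SE. Scaling decides the direction of many of these genes: with TMM, which scales as if most of the listed genes had stayed level, the median over all tested genes moved from 1.90 to 0.19, and 6 of the 27 were called higher, 7 lower and 14 neither. Those 6 were Mmp3, Mmp13, Mmp25, Timp1, Thbs1 and Adamts9. Over all genes the split under TMM was 600 higher and 464 lower in place of 1366 and 169. In bulk tissue, fewer cells of a type and less RNA per cell cannot be told apart.

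**Figure D1:**
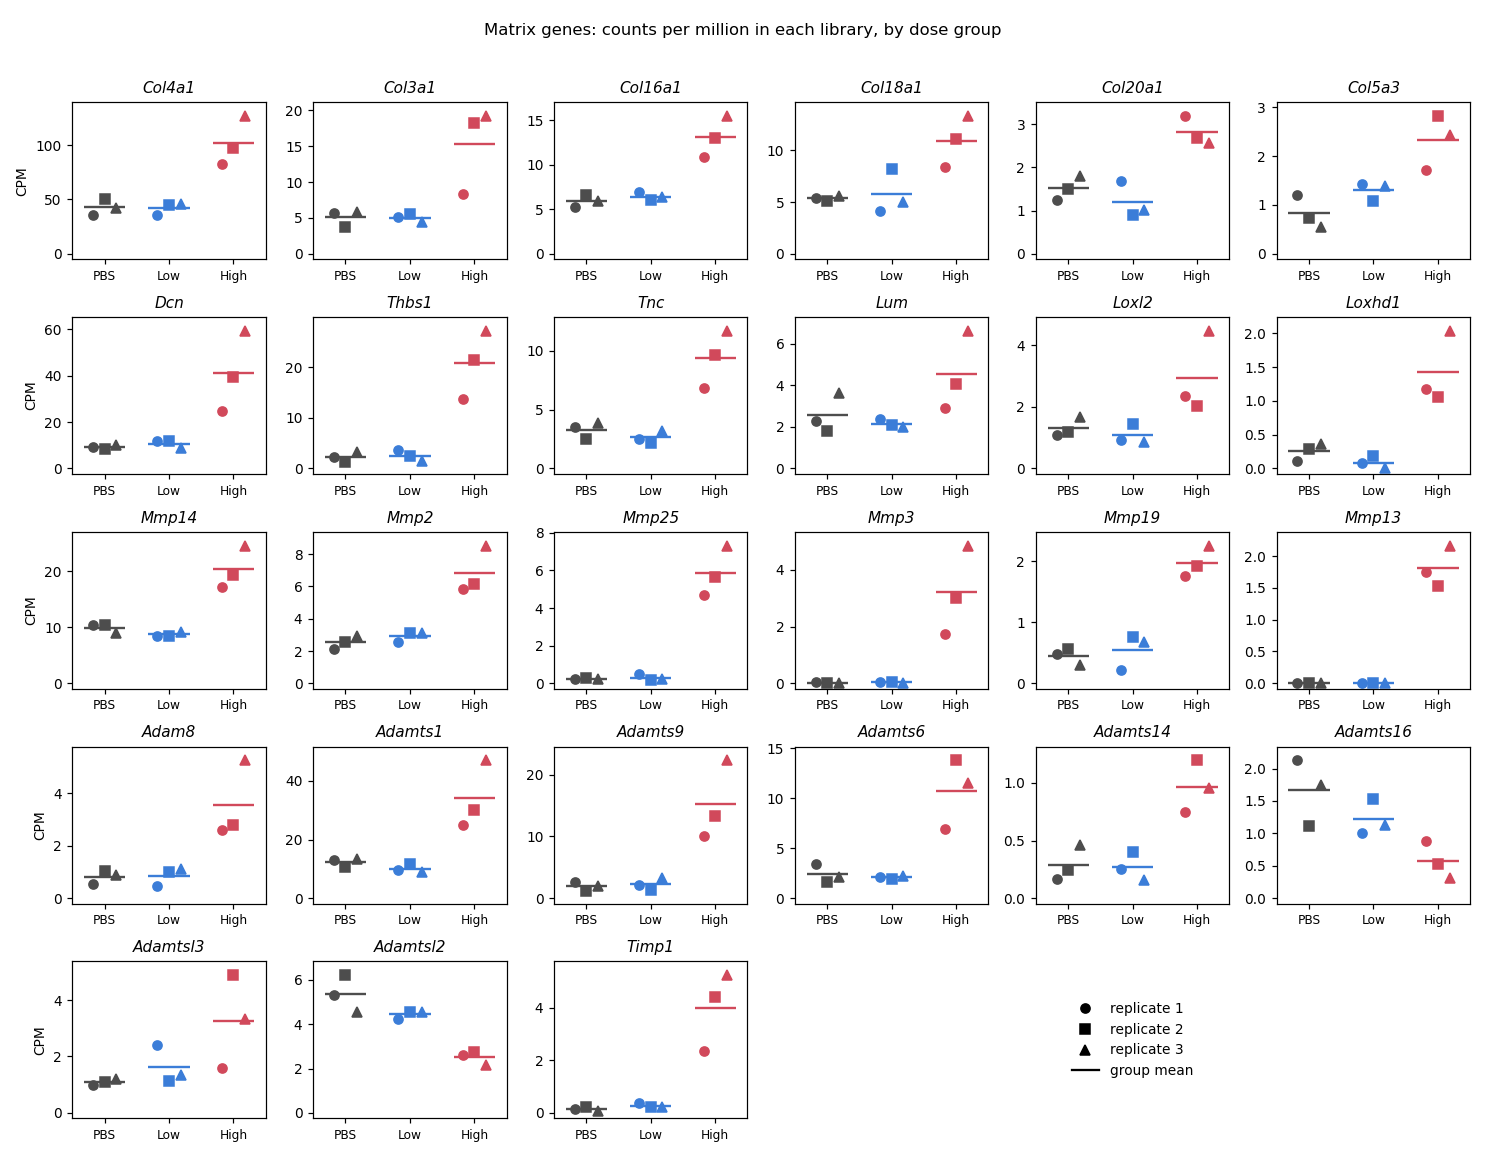
CPM (vertical axis, a scale of its own for each gene) of the 27 matrix genes in each of the 9 libraries, by dose group; marker shapes are replicates and lines are group means. HighDose libraries lie above PBS for 24 genes, below it for Adamts16 and Adamtsl2, and overlap it for Lum.

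Among the matrix metalloproteinases all 6 rose at the high dose, as did 86.3% of all genes tested. Their median log2 change was 3.33 (all genes 1.90). Mmp13, a collagenase, had 0 counts in each PBS and LowDose library and 40, 32 and 50 counts in the HighDose libraries, that is 1.75, 1.53 and 2.17 CPM. Against a floor of 3 counts over the group it was at least 36.9-fold higher than in PBS (adjusted p = 2.66e-09) and at least 39.4-fold higher than in LowDose (adjusted p = 1.87e-09). Mmp3, stromelysin-1, which cuts proteoglycans and activates other pro-MMPs, had 1, 0 and 0 counts in PBS, 1, 1 and 0 in LowDose and 40, 63 and 112 in HighDose. Its HighDose level was 3.21 ± 1.56 CPM (SD, n = 3), and the ratio was 195 to PBS (95% exact counting interval 34.7 to 7745) and 104 to LowDose (28.5 to 865). The intervals cover counting error only. Mmp3 and Mmp13 thus had at most 1 count in any library outside HighDose and at least 32 in each library within it.

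Mmp25 (chr17:23628311-23645277), a membrane-anchored MMP best known from leukocytes, stood at 0.218, 0.291 and 0.231 CPM in PBS, 0.506, 0.180 and 0.214 in LowDose and 4.68, 5.64 and 7.32 in HighDose. Its log2 change from PBS was 4.54 ± 0.45 (adjusted p = 3.85e-12), a 23.9-fold ratio of means. The lowest HighDose library of Mmp25 was 9.26-fold above the highest of the other 6. Mmp19 rose from 0.485, 0.561 and 0.297 CPM in PBS to 1.75, 1.93 and 2.26 in HighDose (2.13 ± 0.50, adjusted p = 0.000139), with 0.211, 0.765 and 0.679 in LowDose. Of the Mmp19 exon bases, 22.3% are shared with Tmem198b on the opposite strand, and the Mmp19 counts were not whole in 8 libraries. Strand use in counting was not given in the sources used here. Whether reads of the shared bases were assigned to the right gene is thus not known.

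Mmp14 and Mmp2, a membrane-anchored MMP and the gelatinase it activates, changed least in this family. Mmp14 was measured at 10.4, 10.4 and 9.04 CPM in PBS, 8.51, 8.41 and 9.19 in LowDose and 17.1, 19.3 and 24.6 in HighDose, a log2 change of 1.03 ± 0.23 (adjusted p = 6.49e-05). Mmp2 was measured at 2.13, 2.57 and 2.95 CPM in PBS, 2.53, 3.15 and 3.10 in LowDose and 5.86, 6.17 and 8.54 in HighDose, a log2 change of 1.42 ± 0.30 (adjusted p = 3.50e-05). For both genes every HighDose library lay above the other 6, whose groups overlapped, and both turn negative under TMM scaling, at -0.67 and -0.28.

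Timp1 (chrX:20870166-20874735), the secreted inhibitor of most MMPs, rose beside them. Its level was 0.164, 0.242 and 0.0922 CPM in PBS, 0.379, 0.225 and 0.214 in LowDose and 2.36, 4.40 and 5.24 in HighDose. The log2 change was 4.55 ± 0.52 against PBS (adjusted p = 1.69e-10), a 24.1-fold ratio of means, and 3.83 ± 0.48 against LowDose (adjusted p = 1.70e-09). The PBS values rest on 2 to 5 counts per library. Per transcript length, Timp1 moved from rank 20 of the 27 in PBS (0.193 FPKM) to rank 5 in HighDose (4.65 ± 1.74 FPKM, SD, n = 3).

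**Figure D2:**
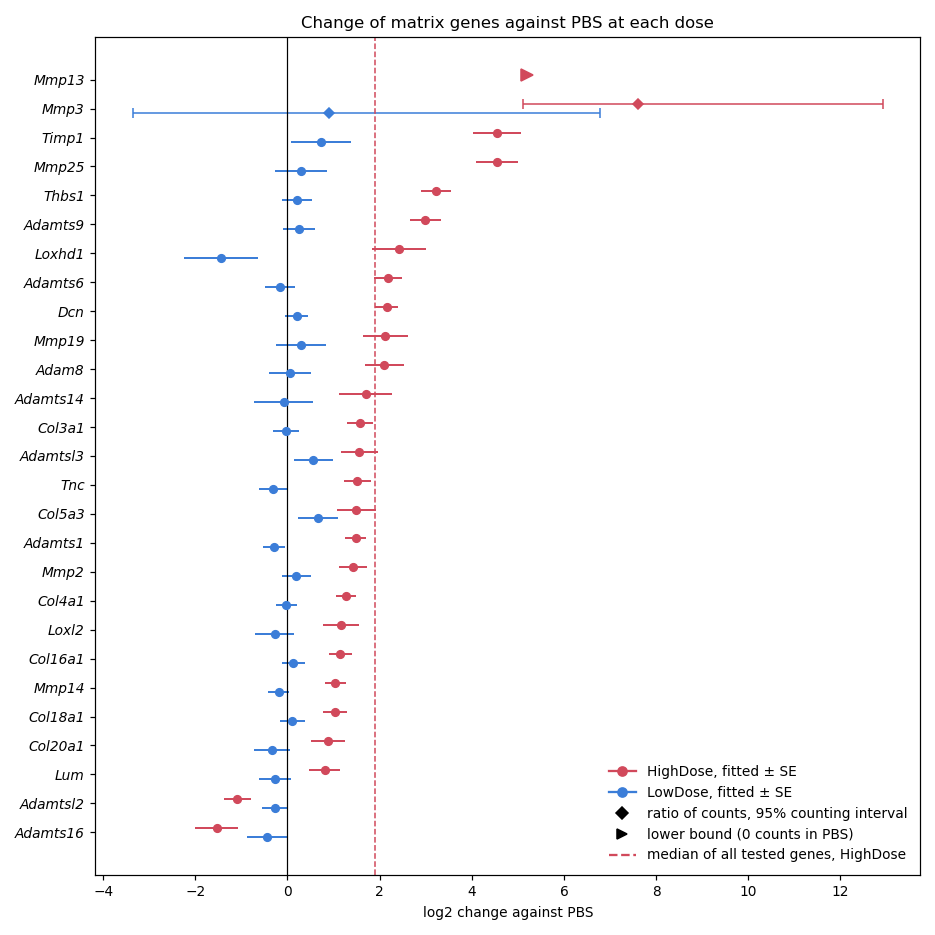
Log2 change against PBS (horizontal axis) of each matrix gene in HighDose (red) and LowDose (blue); circles are fitted values with SE, diamonds ratios of counts with a 95% counting interval, the triangle a lower bound, and the dashed line the median HighDose change of all tested genes (1.90). LowDose values lie around 0, whereas 25 HighDose values lie to the right of 0 and 2 to the left.

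Adam8, a disintegrin metalloproteinase of leukocytes and activated glia, rose from 0.545, 1.02 and 0.876 CPM in PBS to 2.58, 2.77 and 5.24 in HighDose, with 0.464, 0.989 and 1.12 in LowDose. The log2 change was 2.11 ± 0.42 (adjusted p = 1.62e-05). The lowest HighDose library of Adam8 was 2.30-fold above the highest of the others.

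Of the 5 ADAMTS proteases, 4 rose and Adamts16 fell, where 86.3% of all genes tested rose and 10.7% fell. Adamts9 (chr6:92772699-92943492), which cuts the chondroitin sulphate proteoglycans versican and aggrecan, stood at 2.62, 1.11 and 2.03 CPM in PBS, 2.19, 1.39 and 3.31 in LowDose and 10.1, 13.3 and 22.3 in HighDose (2.99 ± 0.33, adjusted p = 7.97e-11). Adamts1, a protease of the same substrates, stood at 12.9, 10.7 and 13.2 CPM in PBS, 9.53, 11.5 and 8.98 in LowDose and 25.1, 30.2 and 47.0 in HighDose (1.48 ± 0.24, adjusted p = 3.44e-07). In both genes the lowest HighDose library lay above all 6 others; Adamts1 is at -0.26 under TMM scaling. Adamts6 rose from 3.38, 1.60 and 2.12 CPM in PBS to 6.87, 13.8 and 11.5 in HighDose (2.18 ± 0.31, adjusted p = 3.59e-08), with 2.15, 1.93 and 2.19 in LowDose. Adamts14, a procollagen N-propeptidase, rose from 0.164, 0.242 and 0.461 CPM in PBS to 0.744, 1.20 and 0.953 in HighDose (1.69 ± 0.57, adjusted p = 0.00525), with 0.253, 0.405 and 0.160 in LowDose.

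Adamts16 (chr13:70727802-70841811) was the gene that fell most, from 2.13, 1.11 and 1.75 CPM in PBS to 0.875, 0.526 and 0.303 in HighDose, with 1.01, 1.53 and 1.12 in LowDose. Its log2 change against PBS was -1.54 ± 0.47 (adjusted p = 0.00248), and all HighDose libraries lay below all others. Adamtsl2 (chr2:27079379-27108981), an ADAMTS-like protein without a protease domain that binds microfibrils, fell from 5.29, 6.20 and 4.56 CPM in PBS to 2.63, 2.73 and 2.17 in HighDose (-1.09 ± 0.30, adjusted p = 0.000748). Its LowDose libraries were at 4.21, 4.54 and 4.54 CPM, below the lowest PBS library by a small margin and above all HighDose libraries. Adamtsl3, a related protein, went the other way, from 0.981, 1.11 and 1.20 CPM in PBS through 2.40, 1.12 and 1.34 in LowDose to 1.57, 4.88 and 3.34 in HighDose (1.56 ± 0.41, adjusted p = 0.000504; -0.17 under TMM scaling). HighDose replicate 1 of Adamtsl3 lay within the LowDose range, and in FPKM it lay below PBS replicate 2 (0.32 against 0.36).

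All 6 collagens rose at the high dose, as did 86.3% of all genes tested. Their median log2 change was 1.21, and each lay below the median of all genes tested. Under TMM scaling all 6 are negative, from -0.78 for Col20a1 to -0.17 for Col3a1. Col4a1 (chr8:11198423-11312826), a chain of the type IV collagen of basement membranes, was at 35.4, 50.3 and 42.0 CPM in PBS, 35.4, 45.1 and 45.4 in LowDose and 82.3, 97.6 and 127 in HighDose. Its log2 change was 1.26 ± 0.22 against PBS (adjusted p = 1.86e-06). Col3a1, the fibrillar type III collagen of vessel walls and scars, was at 5.72, 3.73 and 5.86 CPM in PBS, 5.06, 5.48 and 4.38 in LowDose and 8.27, 18.2 and 19.2 in HighDose (1.58 ± 0.28, adjusted p = 2.08e-06). Replicate 1 of HighDose was the lowest of its group for both, yet in CPM above every library of the other groups. In FPKM this held for Col4a1 only. For Col3a1 that library lay below PBS replicate 3 and LowDose replicates 2 and 3 in FPKM.

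Col16a1, a fibril-associated collagen, was at 5.29, 6.54 and 5.86 CPM in PBS, 6.91, 6.02 and 6.30 in LowDose and 10.8, 12.96 and 15.5 in HighDose (1.15 ± 0.25, adjusted p = 4.43e-05). Col18a1, the basement membrane collagen that gives rise to endostatin, was at 5.34, 5.08 and 5.63 CPM in PBS, 4.09, 8.18 and 4.97 in LowDose and 8.40, 11.1 and 13.3 in HighDose (1.03 ± 0.27, adjusted p = 0.000535). In CPM the lowest HighDose library of Col18a1 was only 1.03-fold above LowDose replicate 2, and in FPKM it lay below that library (1.68 against 1.74). Col5a3, a chain of type V collagen, was at 1.20, 0.726 and 0.553 CPM in PBS, 1.43, 1.08 and 1.39 in LowDose and 1.71, 2.82 and 2.43 in HighDose (1.49 ± 0.42, adjusted p = 0.00112). Col20a1 was at 1.25, 1.50 and 1.80 CPM in PBS, 1.69, 0.899 and 1.02 in LowDose and 3.19, 2.68 and 2.56 in HighDose (0.88 ± 0.37, adjusted p = 0.0234). The Col20a1 call against PBS was lost without PBS replicate 1 (0.77, adjusted p = 0.0917) or PBS replicate 2 (0.87, adjusted p = 0.0599).

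Among the adhesive and proteoglycan genes, thrombospondin-1 (Thbs1, chr2:118111876-118127133), a matricellular protein that can activate latent TGF-beta, changed most. It was at 2.18, 1.26 and 3.18 CPM in PBS, 3.67, 2.52 and 1.44 in LowDose and 13.7, 21.4 and 27.2 in HighDose, a log2 change of 3.23 ± 0.32 (adjusted p = 3.39e-12). Decorin (Dcn), a small leucine-rich proteoglycan that binds collagen fibrils, was at 9.38, 8.28 and 10.1 CPM in PBS, 11.6, 11.6 and 8.71 in LowDose and 24.9, 39.6 and 59.4 in HighDose (2.16 ± 0.25, adjusted p = 3.10e-10). The lowest HighDose library lay 3.72-fold above the highest of the other 6 for Thbs1 and 2.14-fold above it for Dcn. Tenascin-C (Tnc), an adhesion-modulating glycoprotein of reactive glia, was at 3.49, 2.52 and 3.83 CPM in PBS, 2.53, 2.16 and 3.21 in LowDose and 6.83, 9.66 and 11.7 in HighDose (1.52 ± 0.29, adjusted p = 8.79e-06; -0.21 under TMM scaling).

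Lumican (Lum), a proteoglycan of the same family as decorin, lies 47.0 kb from Dcn on chromosome 10 and on the same strand. It was at 2.29, 1.79 and 3.64 CPM in PBS, 2.36, 2.07 and 1.98 in LowDose and 2.89, 4.07 and 6.63 in HighDose. HighDose replicate 1 was below PBS replicate 3, and the log2 change of 0.81 ± 0.34 (adjusted p = 0.0225; -0.94 under TMM scaling) was 0.43 without HighDose replicate 3 (adjusted p = 0.227). The Lum call was also lost without PBS replicate 1 (adjusted p = 0.0627) or PBS replicate 2 (adjusted p = 0.125).

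Loxl2, a lysyl oxidase-like enzyme that crosslinks collagen, was at 1.09, 1.17 and 1.66 CPM in PBS, 0.927, 1.44 and 0.855 in LowDose and 2.34, 2.01 and 4.46 in HighDose (1.17 ± 0.39, adjusted p = 0.00532). It is at -0.56 under TMM scaling, and without HighDose replicate 3, the library that stands highest, the log2 change was 0.74 (adjusted p = 0.0779). Loxhd1 was at 0.109, 0.291 and 0.369 CPM in PBS, 0.0843, 0.180 and 0 in LowDose and 1.18, 1.05 and 2.04 in HighDose (2.42 ± 0.59, adjusted p = 0.000208). Its PBS and LowDose values lie near the floor of 3 counts, which is 0.126 to 0.164 CPM in these libraries.

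Levels can be set between genes only per transcript length, in FPKM. In PBS the order began with Col4a1 (8.0 FPKM), Dcn (5.27), Mmp14 (3.83) and Adamts1 (2.65), each apart from the next over its 3 libraries. In HighDose Dcn (23.5 ± 9.84 FPKM, SD, n = 3) and Col4a1 (21.7 ± 4.31) overlapped at the top and stood apart from Mmp14 (7.91) and Adamts1 (7.20), which overlapped. Below them Timp1, Thbs1, Col16a1, Col3a1 and the genes that follow down to Adam8 each overlapped their neighbour. Thbs1 moved from rank 13 in PBS to rank 6 in HighDose (3.55 FPKM), Mmp25 from 24 to 16 (1.31 FPKM), Mmp3 from 26 to 13 (1.78 FPKM) and Mmp13, last in PBS, to rank 19 (0.677 FPKM). The lowest in HighDose was Adamts16 (0.120 FPKM). On the CPM scale, the summed level of the 27 genes was 114, 120 and 123 in PBS, 110, 123 and 116 in LowDose and 252, 335 and 439 in HighDose. Of the increase in mean CPM from PBS to HighDose, Col4a1 made up 26.8%, Dcn 14.4%, Adamts1 9.81% and Thbs1 8.32%. These shares do not allow for transcript length and so do not rank the genes. In FPKM the mean went from 5.27 to 23.5 for Dcn and from 8.0 to 21.7 for Col4a1.

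**Figure D3:**
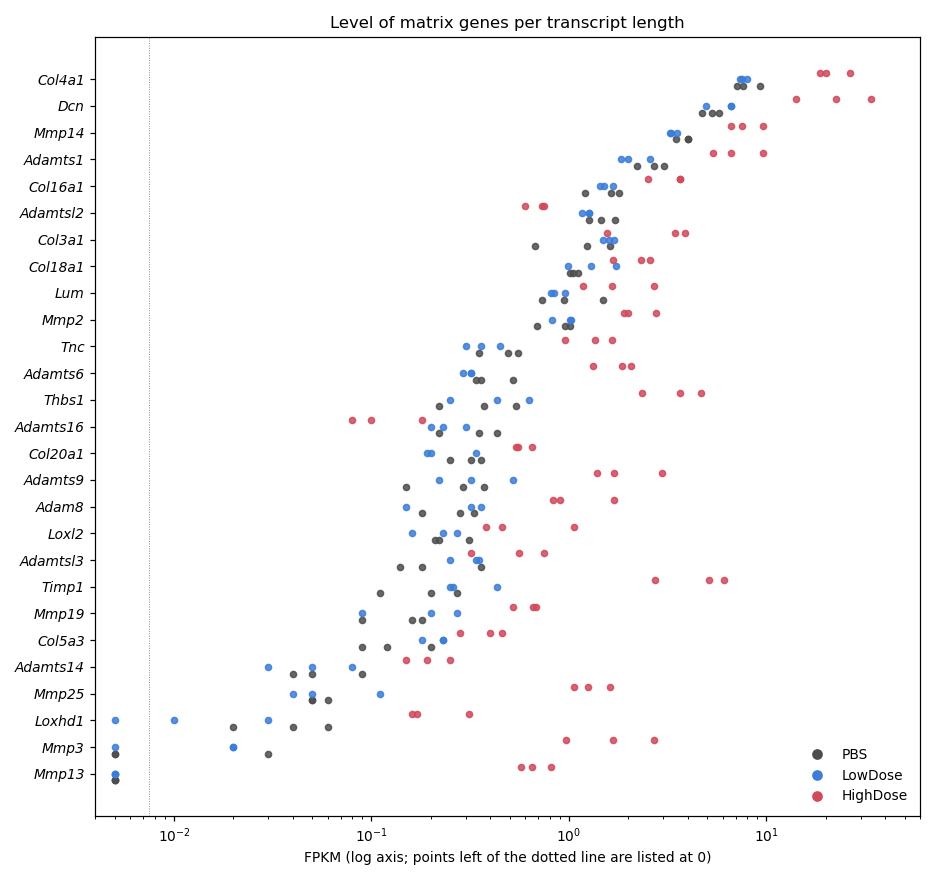
FPKM per library (horizontal log axis; points left of the dotted line are listed at 0) of the 27 matrix genes, ordered by their PBS mean, for PBS (black), LowDose (blue) and HighDose (red). Col4a1 leads in PBS at 8.0 FPKM, and Mmp3, Mmp13, Mmp25 and Timp1 show the widest gaps between HighDose and the other groups.

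At the low dose 0 of the 27 genes passed the test against PBS, and 0 had an unadjusted p under 0.05 in edgeR or in DESeq2. Over all genes tested, 0.442% were called higher and 2.15% lower in this comparison. The median log2 change was 0.00 (all genes -0.03), 13 genes were above 0 and 13 below, and the smallest adjusted p was 0.516, that of Loxhd1 (-1.45 ± 0.80). Apart from Loxhd1, every fitted change was within 2-fold. In CPM, LowDose and PBS libraries overlapped in 26 of the genes. In Adamtsl2 every LowDose library lay below every PBS library, which 13.1% of all genes show, while 6.63% show the reverse. The largest positive values were those of Timp1 (0.72 ± 0.65, adjusted p = 0.792), Mmp3 (2 counts over LowDose and 1 over PBS, ratio 1.88 with an interval of 0.0977 to 111) and Col5a3 (0.66 ± 0.43, adjusted p = 0.643). A change in LowDose was not detectable with these libraries, which does not show that the levels were the same. Mmp13, at 0 counts in all 6 libraries, gave no value to compare.

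HighDose against LowDose uses the same HighDose libraries as the comparison with PBS, so its calls are no independent repeat. In it 25 genes rose and 2 fell (88.1% and 7.08% of all genes tested), with a median log2 change of 1.77 (all genes 1.88). In CPM, every HighDose library lay above every LowDose library in 24 (86.5% of all genes) and below in 2 (6.32%), and Adamtsl3 overlapped. Col3a1 and Col18a1 also overlapped in FPKM. Under TMM scaling 7 were called higher and 9 lower, and over all genes 565 and 461 in place of 1394 and 112. The log2 changes were 4.24 ± 0.44 for Mmp25, 3.87 ± 0.68 for Loxhd1, 3.01 ± 0.31 for Thbs1, 2.74 ± 0.33 for Adamts9 and 2.35 ± 0.31 for Adamts6. They were 1.95 ± 0.25 for Dcn, 1.84 ± 0.30 for Tnc, 1.77 ± 0.24 for Adamts1, 1.61 ± 0.28 for Col3a1 and 1.29 ± 0.22 for Col4a1. Of these, Adamts1, Col3a1 and Col4a1 are negative under TMM scaling, and Dcn (0.15, adjusted p = 0.492), Tnc (0.075, adjusted p = 0.778) and Adamts6 (0.59, adjusted p = 0.0757) lose their call. The 7 still called higher under TMM were Mmp3, Mmp13, Mmp25, Timp1, Thbs1, Adamts9 and Loxhd1.

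The calls of that comparison that were lost on leaving out a library were those of Col5a3, Adamtsl3, Lum and Adamts16. Col5a3 was at 0.83 ± 0.40 (adjusted p = 0.0463), with an adjusted p of 0.0510 in DESeq2, 0.0590 when only the groups compared were fitted, and 0.0525 to 0.180 when PBS replicate 1 or 2, any LowDose library, or HighDose replicate 2 or 3 was left out. Adamtsl3 was at 0.996 ± 0.39 (adjusted p = 0.0156), and at 0.59 without HighDose replicate 2 (adjusted p = 0.200) and 0.79 without LowDose replicate 2 (adjusted p = 0.0733). Lum was at 1.08 ± 0.34 (adjusted p = 0.00349) and at 0.70 without HighDose replicate 3 (adjusted p = 0.0574). Col5a3, Adamtsl3 and Lum are also negative under TMM scaling. Adamts16 was at -1.10 ± 0.48 (adjusted p = 0.0279), with an adjusted p of 0.113 without LowDose replicate 2, 0.0695 without HighDose replicate 2 and 0.113 without HighDose replicate 3. Adamtsl2 was at -0.82 ± 0.30 (adjusted p = 0.00898).

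The HighDose libraries differed among themselves in a way most of the genes shared. Replicate 3 was the highest of the group in 20 of the 25 genes that rose, and replicate 1 the lowest in 21 of 25. Over all 1366 genes called higher these shares were 78.0% and 85.9%, so most genes that rose show the same order of libraries. The exceptions among the 25 with replicate 2 highest were Adamts6, Adamts14, Adamtsl3 and Col5a3, and with replicate 1 highest Col20a1.

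Genes of the wider matrix pathway were taken from 6 lists of 197 genes, chosen with earlier results of these data known, of which 45 are in the table and were tested. At the high dose 42 rose and 3 fell against PBS (median log2 change 1.54), against LowDose 42 rose and 3 fell (median 1.63), and against PBS under TMM scaling 15 were called higher and 18 lower. The counts without TMM lie near the background, which is 86.3% higher and 10.7% lower against PBS, and 88.1% and 7.08% against LowDose. Both medians lie below those of all genes tested (1.90 and 1.88). Against PBS under TMM scaling, 600 of all 1583 genes tested were called higher and 464 lower. The proteases and inhibitors around plasminogen and the cathepsins held 11 tested genes of 33, all of which rose (median 2.52, all genes 1.90), where 86.3% of all genes tested did. The highest of them were Cst7, cystatin F, an inhibitor of lysosomal cysteine proteases, at 5.59 ± 0.43, and cathepsin W (Ctsw), a protease of cytotoxic lymphocytes, at 5.13 ± 0.67. The lowest were Ctsz (1.54 ± 0.22) and Ctsh (1.69 ± 0.22), both at or below 0 under TMM scaling.

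In the list of other core matrix genes 17 of 70 were tested, and 14 rose and 3 fell (median 1.33, all genes 1.90), with 86.3% and 10.7% over all genes tested. Fgl2, a fibrinogen-like protein made by immune cells, rose from 1.32 ± 0.163 to 69.7 ± 18.6 CPM (5.72 ± 0.29), and Lgals3, the lectin galectin-3, rose by 4.30 ± 0.31 on the log2 scale. The 3 that fell were brevican (Bcan, -1.01 ± 0.22), a chondroitin sulphate proteoglycan of the brain, Thbs4 (-1.16 ± 0.27) and fibromodulin (Fmod, -0.67 ± 0.27). The Fmod call was lost without PBS replicate 3, HighDose replicate 2 or HighDose replicate 3, with values of -0.57, -0.59 and -0.39.

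All 4 tested genes of collagen folding and crosslinking, of 21, rose, beside 86.3% of all genes tested: the transglutaminases Tgm1 (3 counts in PBS in all and 948 in HighDose, ratio 287 with a 95% exact counting interval of 97.9 to 1394) and Tgm2 (2.59 ± 0.23), and Plod3 (1.27 ± 0.22) and Serpinh1 (1.17 ± 0.22), which are both lower under TMM scaling. Of 15 hyaluronan genes 2 were tested. The hyaluronan receptor Cd44 rose from 2.90 ± 0.132 to 34.1 ± 12.8 CPM (3.55 ± 0.27). Has2, a hyaluronan synthase, was at 1.66 ± 0.62 (adjusted p = 0.0104), at 1.19 without PBS replicate 2 (adjusted p = 0.0617), at 1.10 without HighDose replicate 3 (adjusted p = 0.151) and at -0.10 under TMM scaling.

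Matrix receptors gave 7 tested genes of 30, all of which rose, as did 86.3% of all genes tested, with a median of 1.14 below the 1.90 of all genes. They had the integrin chains Itga2 (2.29 ± 0.62) and Itga5 (1.25 ± 0.26) highest and the collagen receptors Lair1 (0.97 ± 0.23) and Ddr2 (1.09 ± 0.23) lowest; Itga5, Lair1 and Ddr2 are negative under TMM scaling. TGF-beta and fibrosis signalling gave 5 tested genes of 30, all of which rose, against 86.3% of all genes tested, with a median of 1.12 that is also below 1.90. Gdf15, a stress-induced member of the TGF-beta family, had 1 count over PBS and 289 over HighDose (ratio 262, interval 46.7 to 10399). The lowest of that list were the receptor Tgfbr2 (0.96 ± 0.21) and Lrrc32 (0.997 ± 0.26), which presents latent TGF-beta; both are lower under TMM scaling. At the low dose 1 of the 45, Cst7, passed against PBS, with 0.379, 0.674 and 1.92 CPM in LowDose against 0.278 ± 0.0605 in PBS (1.76 ± 0.49, adjusted p = 0.0371). It was at 0.89 without LowDose replicate 3 (adjusted p = 0.648), and its adjusted p was 0.0527 to 0.0782 without PBS replicate 1, HighDose replicate 1 or HighDose replicate 3.

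Markers of cell types that could carry matrix RNA can be followed only where the table lists them. Like all listed genes, these are at least 2-fold apart in mean FPKM between some pair of groups. That listed markers changed thus repeats that choice, and markers that changed less cannot be seen. Of 14 monocyte and macrophage markers 8 are in the table, and their summed level ranged from 9.18 to 10.3 CPM in PBS, 5.91 to 8.82 in LowDose and 121 to 216 in HighDose. Of the 8, 7 rose at the high dose and Cd163 fell (-1.59 ± 0.49), and Ly6c2 (86.9 CPM) and Plac8 (53.6 CPM) made up most of the mean HighDose sum of 174 CPM. Of 10 T cell markers 8 are in the table, at 0.533 to 1.38, 1.05 to 1.62 and 13.8 to 30.1 CPM, with Cd3d at 0 in every PBS library. Of 10 astrocyte markers 4 are in the table, at 157 to 194, 144 to 225 and 528 to 806 CPM. Of 11 microglia markers 6 are in the table, at 126 to 157, 120 to 125 and 147 to 165 CPM, of which 3 rose and 3 fell at the high dose. The cells that make most fibrillar collagen are hardly covered: of 15 fibroblast and meningeal markers the table holds only Aldh1a2 (4.46 to 6.32, 6.47 to 9.65 and 15.2 to 32.2 CPM), and of 14 mural cell markers only Anpep (4.75 to 6.60, 4.41 to 8.77 and 10.9 to 21.9 CPM). Of 15 endothelial markers 2 are in the table, and Ly6c1 rose while Slco1a4 fell. Single markers were listed for neutrophils (Csf3r) and choroid plexus (Aqp1), both called higher at the high dose. Ly6c1, Csf3r, Aqp1, Vim, Gpnmb, Tmem119 and Itgam, all called higher, are negative under TMM scaling. The striatal markers went from a sum of 1114 to 1648 CPM in PBS to 381 to 929 in LowDose and 375 to 443 in HighDose. Of them 13 were called lower in HighDose and 11 in LowDose. The 3 oligodendrocyte markers of 10 went from 1663 to 2182 CPM to 1004 to 1221 and 797 to 1089. Of these 3 were called lower in HighDose and 2 in LowDose. Against PBS, 86.3% of all genes tested were called higher and 10.7% lower in HighDose, and 0.442% and 2.15% in LowDose. The part of any of these cell types in the matrix results was not tested.

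**Figure D4:**
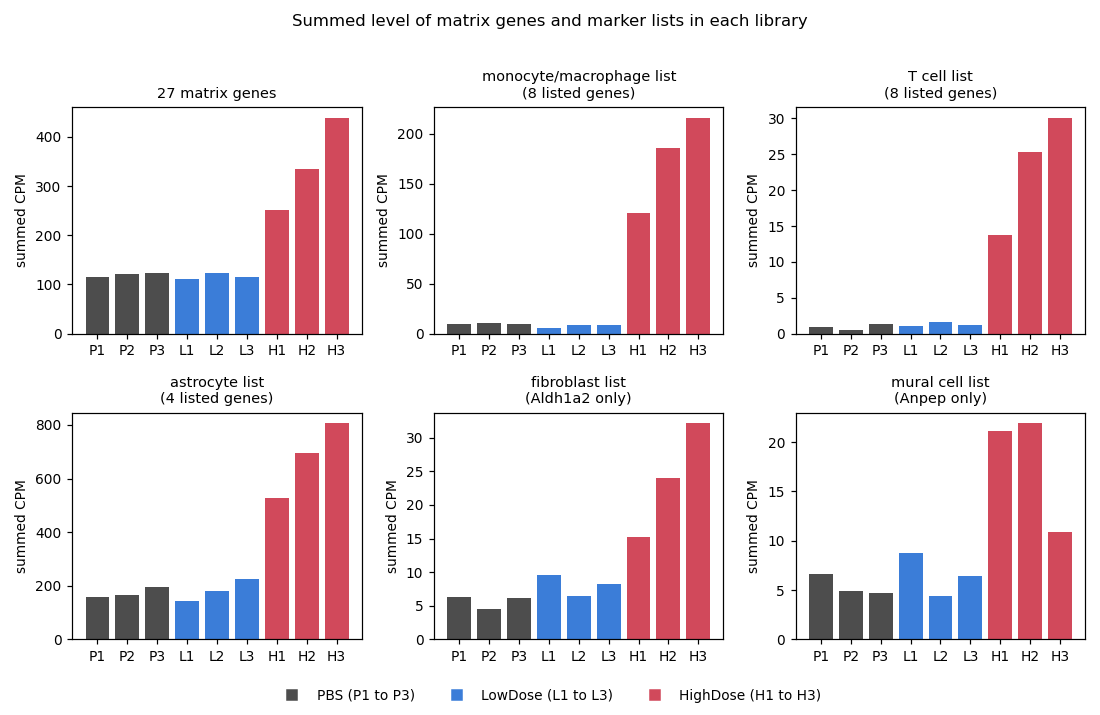
Summed CPM (vertical axis, from 0) in each library (P, PBS; L, LowDose; H, HighDose) for the 27 matrix genes and for 5 marker lists, each over the genes of the list that the table holds. The matrix sum is 110 to 123 CPM in the PBS and LowDose libraries and 252 to 439 in HighDose, with H1 lowest and H3 highest of the HighDose libraries, as in 4 of the marker lists shown and in most genes called higher.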

How the data were processed

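RNA was sequenced in 9 libraries, 3 each of PBS, LowDose and HighDose. The authors deposited estimated counts and FPKM values per gene and library side by side, per the file headers. The submitters' processing notes name mm10, DESeq2 and edgeR but no step for them. The aligner, the counter and its strand setting, and the gene choice, were not given in the sources used here. The table holds 1710 genes, each at least 2-fold apart between some pair of group means in FPKM, so calls describe listed genes only. Between 7.66% and 14.0% of a library's counts had decimals and were rounded.

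Library totals (18.3 to 23.7 M) were recovered as the median of count, FPKM and transcript length over single-transcript GENCODE M21 genes of 600 bases or more, with a minimum of 100 counts and of 5 FPKM. They served as offsets in the quasi-likelihood test of edgeR 4.0.16, run in R 4.3.3 beside limma 3.58.1, with all 3 groups in 1 model, on the 1583 genes that passed filterByExpr (minimum count 10), with Benjamini-Hochberg adjustment over all of them and a threshold of 0.05. SE values are approximate and come from dividing the log2 change by the root of its F statistic. Plots were drawn with matplotlib 3.10.9 and tables built with pandas 2.3.3 (Python 3.11.15). The fit was tested on simulated data in which a minority of genes changed, as many up as down. In the real data 86.3% of genes tested were called higher in HighDose against PBS. The simulation did not cover that case.

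Deviations from the group means correlated between same-numbered PBS and LowDose libraries at r = 0.246, 0.165 and 0.137. For PBS and HighDose r was 0.069, -0.006 and 0.151, and for LowDose and HighDose 0.183, 0.014 and 0.083. Differently numbered PBS and LowDose libraries gave r from -0.147 to 0.013. The highest differently numbered pair was LowDose replicate 2 with HighDose replicate 3, at 0.131. Deviations cancel within a group, so these values depend on each other. The main fit has no term for the replicate number, so the LowDose values given above are unpaired. The replicate block was an alternative fit that pairs libraries by number. That pairing is read from the data and not from the labels.

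Every gene the name rule selects is described; of the other pathway lists, the 2 highest and 2 lowest called changes per list in HighDose against PBS, all calls in LowDose against PBS, and Fmod as the third that fell. The genes, lists and tests were chosen with earlier results of these data known. Alternatives were TMM scaling, no filter, DESeq2 1.42.0, only the groups compared, a replicate block, adjustment over all 55536 annotated genes, leaving out each library, and, chosen after seeing the data, library totals without the listed genes.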

Additional observations from a re-analysis of the deposited data

How the results depend on the processing

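Counts of called matrix genes (25 higher and 2 lower against PBS, 25 and 2 against LowDose, 0 and 0 for LowDose against PBS) were the same with no filter on low counts, with library totals without the listed genes (an alternative chosen after seeing the data) and with the replicate block. The replicate block changed no call of the 27 genes. In LowDose against PBS it left 0 called (smallest adjusted p 0.581). Leaving out 1 library gave 23 to 25 higher and 2 to 2 lower against PBS, and 23 to 25 higher and 1 to 2 lower against LowDose; the other pathway genes gave 0 to 2 higher in LowDose against PBS. Adjusted over all annotated genes, with unlisted genes at a p of 1, 21 matrix genes were higher and 1 lower against PBS, and 19 and 0 against LowDose. The calls lost against PBS were those of Adamts14, Adamts16, Col20a1, Loxl2 and Lum (adjusted p 0.0871 to 0.820), and against LowDose those of Adamts14, Adamts16, Adamtsl2, Adamtsl3, Col18a1, Col20a1, Col5a3 and Lum (adjusted p 0.0540 to 1). Of the other pathway genes 0 were then higher in LowDose against PBS and 1 lower in HighDose against LowDose.

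TMM scaling gave 6 higher and 7 lower matrix genes against PBS and 7 and 9 against LowDose. Of the other pathway genes it called 15 higher and 18 lower against PBS, 14 and 18 against LowDose, and 0 higher in LowDose against PBS. Over all genes tested TMM scaling called 600 higher and 464 lower against PBS, and 565 and 461 against LowDose. Directions turned under it. Against PBS the log2 change was -0.26 for Adamts1, -0.17 for Adamtsl3, -0.56 for Col16a1, -0.68 for Col18a1, -0.78 for Col20a1, -0.17 for Col3a1, -0.45 for Col4a1, -0.21 for Col5a3, -0.56 for Loxl2, -0.94 for Lum, -0.67 for Mmp14, -0.28 for Mmp2 and -0.21 for Tnc. Against LowDose it was -0.0069 for Adamts1, -0.79 for Adamtsl3, -0.73 for Col16a1, -0.82 for Col18a1, -0.50 for Col20a1, -0.18 for Col3a1, -0.47 for Col4a1, -0.92 for Col5a3, -0.32 for Loxl2, -0.71 for Lum, -0.52 for Mmp14 and -0.52 for Mmp2. TMM takes most genes as unchanged, and the table holds only genes with a 2-fold difference. Depth limits Mmp3, Mmp13, Mmp25, Timp1, Loxhd1 and Adamts14, whose PBS and LowDose libraries held few counts.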
